A study of Mus musculus with 10 samples.

Results

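Mast cells are tissue-resident immune cells of blood origin that settle in connective tissue and are abundant in the skin. Their precursors enter embryonic tissues bearing the receptor Kit, and they fill with secretory granules as they mature, storing proteases bound to proteoglycan together with histamine. Antigen releases these stores when it cross-links IgE held on the high-affinity receptor for IgE. In the forming mouse ear, 10 genes of this cell were read (10 of the 53465 genes of the count table), chosen by name with earlier results of these data known and matched to the table by Ensembl identifier, and all 10 had a row. They were split into 6 mature granule genes and 4 lineage genes. The granule genes were the chymases Cma1 and Mcpt4, the tryptases Tpsb2 and Tpsab1, the carboxypeptidase Cpa3, and Hdc, the enzyme that makes histamine. The lineage genes were Kit, Fcer1a and Ms4a2, which encode the alpha and beta chains of the IgE receptor, and the transcription factor Gata2.

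The RNA came from whole pinna prominences, the outgrowths that form the outer ear, dissected at E14.5. Of the 10 libraries, 5 were wild type (WT) and 5 were from homozygous mEC1dup/dup embryos, in which CRISPR knock-in placed an extra copy of mEC1, an enhancer of Hmx1, on each allele (the labels call them knock-in). Libraries came from separate embryos on a C57BL/6J background. The samples were whole tissue, so fewer mast cells and less RNA per mast cell cannot be told apart in any value below. Total counts ranged from 17461544 to 18462073 per library.

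Hmx1 checked the genotype labels and was higher in every mEC1dup/dup library (66.2 ± 9.11 CPM, counts scaled to library size, SD, n = 5) than in any WT library (26.6 ± 3.0 CPM). Markers of the tissue were present, with mean WT levels of 628 CPM for Prrx1 and 5606 CPM for Col1a1 in mesenchyme and 327 CPM for Krt5 in epithelium. Genotype moved together with 2 other measures. Xist, the RNA of the inactive X chromosome, had 2 to 5 counts in the WT libraries, 12812 to 19040 in mEC1dup/dup replicates 1, 2 and 3, 2096 in replicate 4 and 0 in replicate 5. Embryonic globin genes, which are replaced by adult globins as development goes on, held 18.4% to 23.3% of the globin counts in WT and 32.5% to 35.6% in mEC1dup/dup libraries. Values without the Xist-high libraries and with each measure as a covariate follow after the lists. Hmx1 itself had a log2 fold change of 1.31 (edgeR adjusted p = 0.000127), of 1.02 with Xist as a covariate (adjusted p = 0.0321) and of 0.34 with the globin share as a covariate (adjusted p = 0.921).

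The 10 genes lay on 8 chromosomes of GRCm39, all of them protein-coding. The chymases Cma1 (chr14:56178908-56182132) and Mcpt4 (chr14:56297086-56299770) stood near each other on the minus strand, and the tryptases Tpsb2 (chr17:25585170-25588079, plus strand) and Tpsab1 (chr17:25562212-25564541, minus strand) likewise formed a neighbouring pair. Each pair consists of related genes between which the counting could have split reads. Cpa3 (chr3:20269774-20296362, minus strand) shared 15.4% of its exonic bases with the opposite-strand gene Gm31320, and Gata2 (chr6:88170559-88184018, plus strand) shared 11.5% with the opposite-strand gene Spehd. The library kits named for this experiment do not mark strand, so reads in those stretches cannot be assigned to one gene. Hdc (chr2:126435558-126461318), Fcer1a (chr1:173048851-173054781) and Ms4a2 (chr19:11592887-11601083) lay on the minus strand and Kit (chr5:75735576-75817404) on the plus strand.

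GATA factors, of which Gata2 is one, bind GATA preceded by A or T and followed by A or G, and these letters were searched on both strands. The 250 bases upstream of the annotated transcript start held at least 1 such match in 7 of the 10 members, namely Cma1, Mcpt4, Tpsab1, Cpa3, Fcer1a, Ms4a2 and Gata2, against 26.2% of 21757 protein-coding promoters. The paired genes are related, so their promoters are not independent. The windows of Cma1 and Cpa3, proteases called lower, are shown with that of Ms4a2, which held 3 matches, the most of any member. They are printed from GRCm39 on the strand of the gene, 5′ to 3′, with the last base next to the start and the matches in capitals. The windows are chr14:56182133-56182382 for Cma1, chr3:20296363-20296612 for Cpa3 and chr19:11601084-11601333 for Ms4a2.
Cma1: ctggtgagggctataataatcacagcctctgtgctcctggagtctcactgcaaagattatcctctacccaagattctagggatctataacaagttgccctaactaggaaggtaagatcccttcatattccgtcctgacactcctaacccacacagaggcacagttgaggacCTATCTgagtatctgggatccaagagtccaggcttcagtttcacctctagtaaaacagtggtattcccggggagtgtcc
Cpa3: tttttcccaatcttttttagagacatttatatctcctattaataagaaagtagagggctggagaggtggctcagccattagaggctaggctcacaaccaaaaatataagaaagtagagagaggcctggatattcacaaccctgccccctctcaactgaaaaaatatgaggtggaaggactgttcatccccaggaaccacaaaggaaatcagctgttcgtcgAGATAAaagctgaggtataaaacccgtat
Ms4a2: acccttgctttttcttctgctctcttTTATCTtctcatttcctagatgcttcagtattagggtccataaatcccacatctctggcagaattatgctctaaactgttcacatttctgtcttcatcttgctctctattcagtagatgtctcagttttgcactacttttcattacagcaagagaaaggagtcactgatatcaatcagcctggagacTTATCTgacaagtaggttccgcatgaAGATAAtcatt

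The Cpa3 match began 29 bases from the start and the Cma1 match 79 bases from it. CATGTG, a form of the E-box bound by the mast cell and melanocyte factor MITF, occurred in the window of Fcer1a alone among the members (10.5% of all promoters). CAAGTG, the letters recognised by HMX factors, occurred in those of Hdc and Gata2 (12.4% of all promoters). These are matches of letters, not measured sites.

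Of the 8 members that passed the filter on low counts, 4 were lower in mEC1dup/dup than in WT pinna at the thresholds used (edgeR's quasi-likelihood p, adjusted by Benjamini-Hochberg over 16426 genes, of at most 0.05 with log2 CPM averaging at least 1). Cma1, Tpsb2, Cpa3 and Hdc made up this group. The calls thus covered 4 of the 5 granule genes tested and 0 of the 3 lineage genes tested, Ms4a2 and Kit having unadjusted p below 0.05. Mcpt4 and Ms4a2 averaged under the log2 CPM threshold, so neither could have been called at any p. Dropping that threshold added neither to the calls. Across all tested genes 1.81% were called lower. All 5 mEC1dup/dup libraries lay below all 5 WT libraries for the same 4 members, a separation seen in 2.75% of all tested genes. No member was called higher, against 0.834% of all tested genes, and none lay above WT in every library, against 2.33%.

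**Figure D1:**
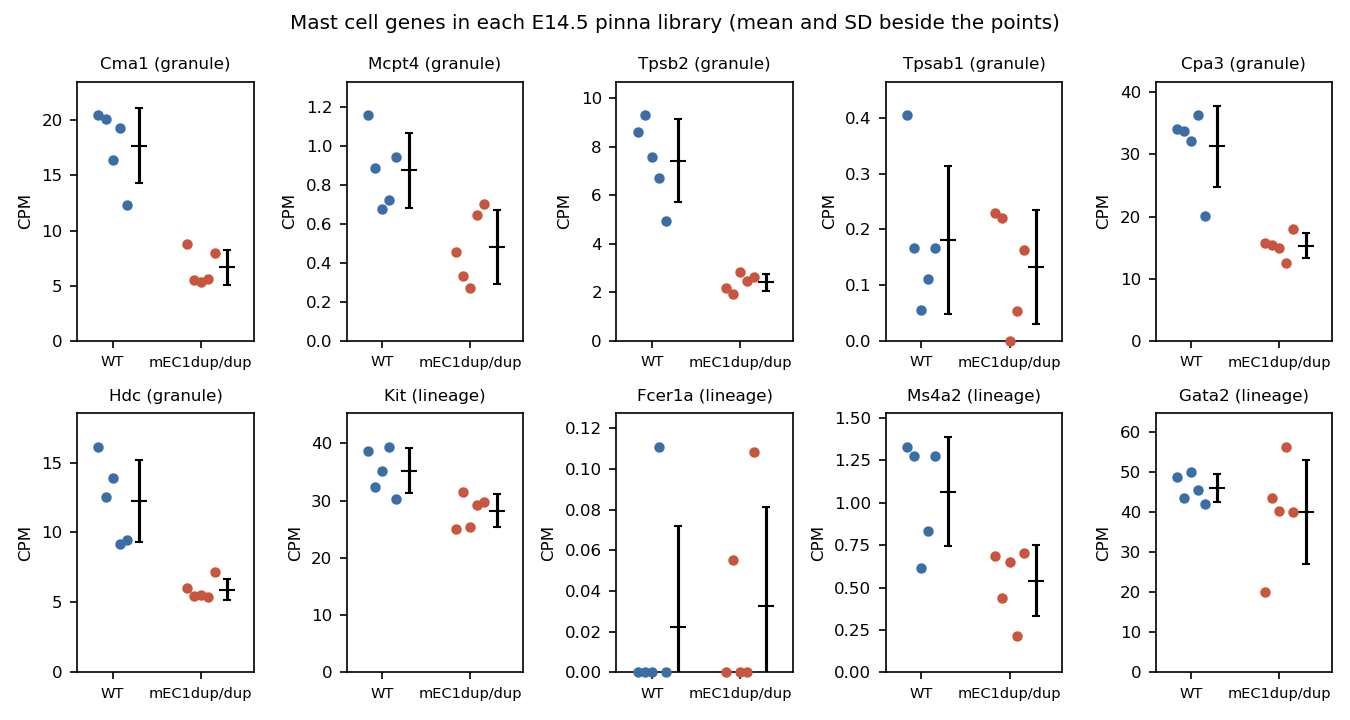
TMM-scaled CPM (vertical axes, each from 0) of the 10 members in 5 WT (blue) and 5 mEC1dup/dup (red) libraries, ordered by replicate from left to right, with the mean and SD in black (bars cut at 0). The groups are separate for Cma1, Tpsb2, Cpa3 and Hdc and overlap for the other members.

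The largest estimated decreases among the members were those of Tpsb2 and Cma1. Tpsb2, a tryptase that mature mast cells of connective tissue store, measured 8.61, 9.30, 7.58, 6.70 and 4.93 CPM in WT replicates 1 to 5 and 2.17, 1.93, 2.82, 2.48 and 2.65 CPM in mEC1dup/dup replicates 1 to 5. The lowest WT library thus stood well above the highest mEC1dup/dup library. The mean fell from 7.42 ± 1.71 CPM to 2.41 ± 0.362 CPM (SD, n = 5). This was 3.07-fold lower, or -1.62 ± 0.18 on the log2 scale (SE, edgeR adjusted p = 0.00127).

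Cma1, a serine protease of the chymase family stored in the granules, measured 20.5, 20.1, 16.4, 19.3 and 12.3 CPM in WT and 8.80, 5.57, 5.32, 5.61 and 8.01 CPM in mEC1dup/dup replicates 1 to 5. Its highest mEC1dup/dup libraries were replicates 1 and 5, both below the lowest WT library, replicate 5. The log2 fold change was -1.41 ± 0.17 (SE, edgeR adjusted p = 0.00195), so that mEC1dup/dup pinna held 37.6% of the mean WT level.

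Cpa3, the carboxypeptidase found in mast cells from early stages onward, had the highest mean CPM of the granule genes in both genotypes, before correction for gene length. It measured 34.1, 33.8, 32.2, 36.3 and 20.05 CPM in WT and 15.7, 15.4, 15.0, 12.6 and 18.0 CPM in mEC1dup/dup replicates 1 to 5. WT replicate 5 sat far below the other WT libraries and only slightly above mEC1dup/dup replicate 5. The difference was 2.04-fold (log2 fold change -1.03 ± 0.14, SE, edgeR adjusted p = 0.00393), and leaving WT replicate 5 out moved it to -1.15.

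Hdc, the only member whose product is a small-molecule synthesising enzyme rather than a stored protein, measured 16.1, 12.6, 13.9, 9.20 and 9.47 CPM in WT and 6.0, 5.46, 5.54, 5.39 and 7.2 CPM in mEC1dup/dup replicates 1 to 5. The mEC1dup/dup values lay close together, whereas WT replicates 4 and 5 were lower than the other WT libraries. The log2 fold change was -1.05 ± 0.16 (SE, edgeR adjusted p = 0.00632), similar in size to that of Cpa3.

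The other chymase and tryptase were near the limit of detection. Mcpt4 had 20, 16, 12, 13 and 17 counts in WT and 8, 6, 5, 12 and 13 counts in mEC1dup/dup replicates 1 to 5. Its log2 fold change of -0.85 ± 0.30 (SE, edgeR adjusted p = 0.177, 95% interval -1.51 to -0.19) did not pass, and its average log2 CPM of -0.34 was under the threshold for a call. Tpsab1 had 7, 3, 1, 2 and 3 counts in WT and 4, 4, 0, 1 and 3 in mEC1dup/dup replicates, 16 against 12 in all, and was not tested. With 3 counts as the limit that a count of 0 allows, 0.162 to 0.173 CPM could have been missed in a library, and no difference in Tpsab1 was detectable at this depth.

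The lineage genes gave smaller or uncertain differences. Kit, the receptor for stem cell factor on which mast cells depend, is also borne by melanoblasts and blood progenitors. It measured 38.7, 32.4, 35.2, 39.4 and 30.3 CPM in WT and 25.1, 31.6, 25.4, 29.3 and 29.8 CPM in mEC1dup/dup replicates 1 to 5. Only mEC1dup/dup replicate 2 reached into the WT range. The log2 fold change was -0.32 ± 0.09 (SE, edgeR adjusted p = 0.0724, 95% interval -0.51 to -0.13). It was called by the Wald test of DESeq2 (adjusted p = 0.0182) and by edgeR without WT replicate 5 (adjusted p = 0.0478). The intervals of Cpa3 (-1.34 to -0.72) and Cma1 (-1.78 to -1.04) lay wholly below that of Kit, although the difference between genes was not tested.

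Gata2, needed for mast cell commitment and expressed in endothelium and other tissues too, measured 48.8, 43.6, 50.1, 45.6 and 42.0 CPM in WT and 20.0, 43.6, 40.3, 56.3 and 40.1 CPM in mEC1dup/dup replicates 1 to 5. The mEC1dup/dup libraries held both the lowest and the highest value. The log2 fold change was -0.20 ± 0.19 (SE, edgeR adjusted p = 0.665, 95% interval -0.60 to 0.21), and without mEC1dup/dup replicate 1 it was -0.03.

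The IgE receptor was scarce at this stage. Ms4a2, its beta chain, had 23, 23, 11, 15 and 23 counts in WT and 12, 8, 12, 4 and 13 counts in mEC1dup/dup replicates 1 to 5. The groups overlapped, and the log2 fold change of -0.97 ± 0.33 (SE, 95% interval -1.69 to -0.26) did not pass at an edgeR adjusted p of 0.153. Its average log2 CPM of -0.14 was also under the threshold for a call. The interval of Ms4a2 takes in the fold changes of Cpa3 and Hdc as well as that of Kit, but not that of Gata2 (-0.20). Ms4a2 thus cannot be placed with either set, and differences between genes were not tested. Fcer1a, the IgE-binding chain, had 2 counts over the 5 WT libraries and 3 over the 5 mEC1dup/dup libraries and was at 0 in 4 and 3 of them, respectively. No level of Fcer1a above the counting limit could be shown in either genotype.

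**Figure D2:**
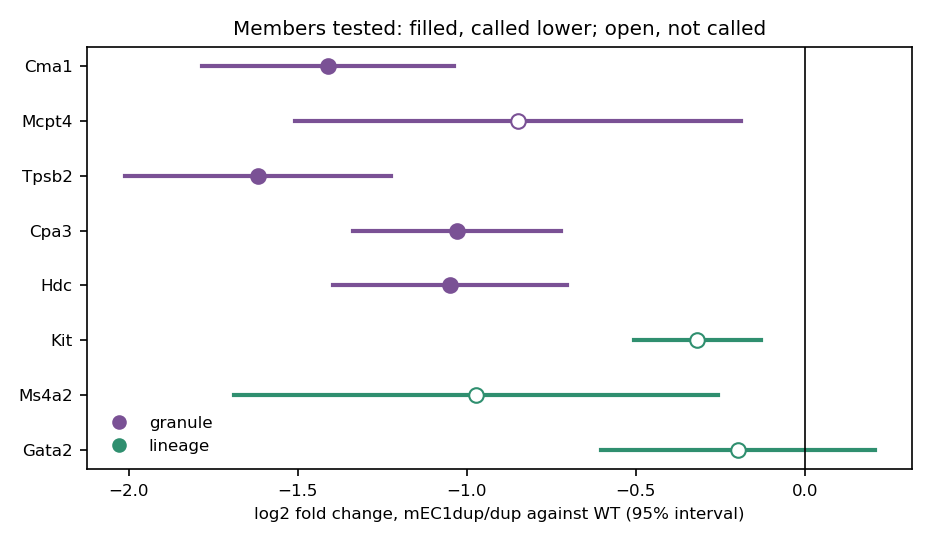
Log2 fold change of mEC1dup/dup against WT (horizontal axis) for the 8 members tested, with 95% intervals, granule genes in purple and lineage genes in green, filled where called lower. Tpsb2 lies farthest from 0 at -1.62 and only the interval of Gata2, -0.60 to 0.21, includes 0.

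Per kilobase of annotated exon, which allows levels of different genes to be set side by side, Cpa3 (19.6 ± 4.0 CPM per kilobase, SD, n = 5) and Cma1 (16.3 ± 3.1) led the WT levels and did not differ from each other beyond their spread. Gata2 (5.73 ± 0.43) came next, followed by Kit (3.72 ± 0.41) and Tpsb2 (3.39 ± 0.78), again within each other's spread. Hdc (1.78 ± 0.43), Mcpt4 (0.790 ± 0.17) and Ms4a2 (0.379 ± 0.11) were lower. In mEC1dup/dup libraries the same quantity was 9.59 ± 1.2 for Cpa3, 6.11 ± 1.5 for Cma1, 4.99 ± 1.6 for Gata2, 2.98 ± 0.30 for Kit and 1.10 ± 0.17 for Tpsb2. Thus Cma1 and Gata2, well apart in WT, came within each other's spread, and Tpsb2 dropped clear of Kit. The exon length covers all annotated transcripts and so understates genes with long alternative exons.

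Summed over the 6 granule genes, WT replicates 1 to 5 held 80.8, 76.8, 70.8, 72.3 and 47.9 CPM and mEC1dup/dup replicates 33.4, 28.9, 28.9, 26.8 and 36.8 CPM. The groups did not overlap and the mEC1dup/dup mean was 44.4% of the WT mean. The 4 lineage genes summed to 88.9, 77.3, 85.9, 85.9 and 73.5 CPM in WT and to 45.8, 75.7, 66.4, 85.8 and 70.8 CPM in mEC1dup/dup replicates 1 to 5, with a mean of 83.7% of WT. These overlapped, and the lowest sum, in mEC1dup/dup replicate 1, came with its low Gata2. Kit (mean 35.2 CPM) and Gata2 (46.0 CPM) made up nearly all of the mean WT lineage sum of 82.3 CPM. Other cells express both, so this sum does not measure mast cells alone. Ms4a2 (1.06 CPM) and Fcer1a (0.022 CPM) added little to it, and mean Ms4a2 in mEC1dup/dup libraries was 50.7% of WT at low counts.

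**Figure D3:**
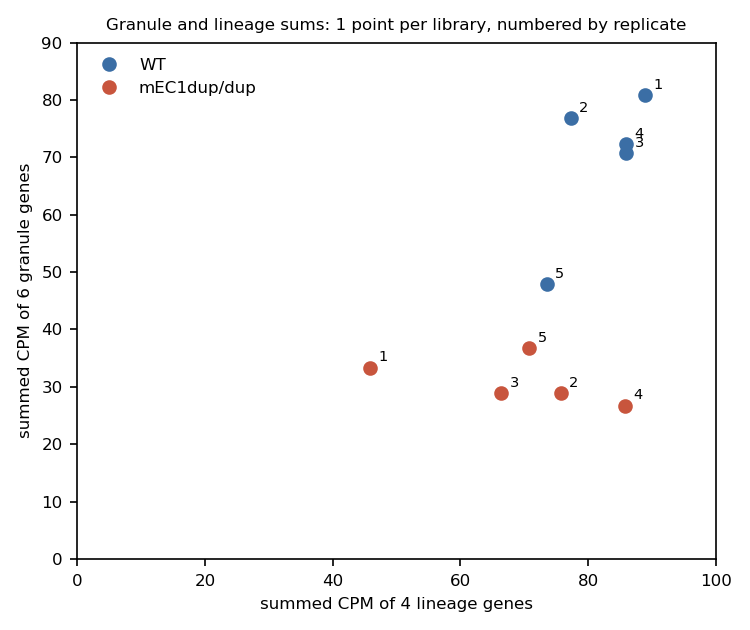
Summed CPM of the 6 granule genes (vertical axis) against that of the 4 lineage genes (horizontal axis), with 1 point per library numbered by replicate, WT in blue and mEC1dup/dup in red. The genotypes separate on the vertical axis, where the highest mEC1dup/dup value is 36.8 and the lowest WT value 47.9, and overlap on the horizontal one. Kit and Gata2, which other cells also express, make up nearly all of the lineage sum.

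Within single libraries, granule expression relative to Kit also separated the genotypes. The ratio of summed granule CPM to Kit CPM was 1.58 to 2.37 in WT and 0.913 to 1.33 in mEC1dup/dup libraries. Relative to the sum of all 4 lineage genes, the ratio was 0.651 to 0.994 in WT and 0.312 to 0.729 in mEC1dup/dup libraries, and the genotypes overlapped through mEC1dup/dup replicate 1. Both ratios rest on genes that other cells also express. The make-up of the granule sum overlapped between genotypes. Tpsb2 gave 9.26% to 12.1% of it in WT and 6.51% to 9.76% in mEC1dup/dup, and Cpa3 41.9% to 50.2% and 47.0% to 53.2%. Cma1 gave 25.4% ± 1.4 of the sum in WT and 21.4% ± 3.1 in mEC1dup/dup (SD, n = 5), and Hdc 17.7% ± 3.2 and 19.2% ± 0.81.

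Other genes linked to mast cells, not all of them particular to this cell or made by it, were then read in 5 lists chosen by hand (64 genes, 54 tested). Of these, 3 were called lower and 1 higher, with a median log2 fold change of -0.12 beside -0.0041 for all tested genes. Among other granule and mediator genes, 1 of 11 tested was called lower, although all 11 had negative estimates (median -0.23). That gene was Cd63, a membrane protein of granules and lysosomes in many cells, at -0.14 ± 0.03 (SE, edgeR adjusted p = 0.0361), a call lost under the replicate block (adjusted p = 0.0519) and without the filter on low counts (adjusted p = 0.109). It was kept in 3 of the 10 fits that each left 1 library out (adjusted p of 0.0285 to 0.116). The largest estimate of this list, named after its values were seen, was that of the tryptase Tpsg1, at 1.68 ± 0.33 CPM in WT and 0.857 ± 0.27 CPM in mEC1dup/dup libraries without overlap (SD, n = 5). Its log2 fold change of -0.96 ± 0.25 (SE, edgeR adjusted p = 0.0617) did not pass, and its average level was also under the threshold for a call. Srgn, the proteoglycan core on which proteases are packed, had a non-significant estimate of -0.55 ± 0.18 on the log2 scale (adjusted p = 0.123), and it was called lower by the Wald test of DESeq2 (adjusted p = 0.0477) and by edgeR without WT replicate 5 (-0.68, adjusted p = 0.0281). Slc18a2, which loads histamine into granules, had -0.22 ± 0.20 (adjusted p = 0.647), and -0.45 without mEC1dup/dup replicate 4 (adjusted p = 0.150).

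Il1rl1, the receptor for interleukin-33, was the one gene called lower among 11 tested surface receptors. It fell from 5.86 ± 1.0 to 3.47 ± 0.46 CPM without overlap (log2 fold change -0.75 ± 0.16, SE, edgeR adjusted p = 0.0237). The call was kept in 4 of the 10 fits that each left 1 library out, with adjusted p of 0.0118 to 0.0704. No gene of the 14 tested in receptor signalling was called (median 0.0042), and Fcer1g, the gamma chain shared by several Fc receptors, had -0.05 ± 0.13 (adjusted p = 0.889). The largest estimates, named after their values were seen, were those of the adaptors Lat2 (-0.84 ± 0.27, adjusted p = 0.131, groups without overlap) and Lcp2 (-0.37 ± 0.14, adjusted p = 0.184).

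Of 13 transcription factors tested 1 was called lower. Cebpa, a factor of myeloid cells that fat cells and other tissues also use, changed by -0.58 ± 0.11 (SE, edgeR adjusted p = 0.0126), whereas Mitf had -0.17 ± 0.10 (adjusted p = 0.460). Among 5 growth factor genes tested, Cxcl12, a chemokine made by mesenchyme, was called higher at 0.27 ± 0.05 (edgeR adjusted p = 0.0188), a call kept in 6 of the 10 fits without 1 library (adjusted p of 0.00613 to 0.0579). Kitl, the ligand of Kit, had -0.24 ± 0.08 (adjusted p = 0.126) and was called lower with the replicate block (adjusted p = 0.0158) and without mEC1dup/dup replicate 1 (-0.32, adjusted p = 0.0228). Il3 was at 0 in every library.

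**Figure D4:**
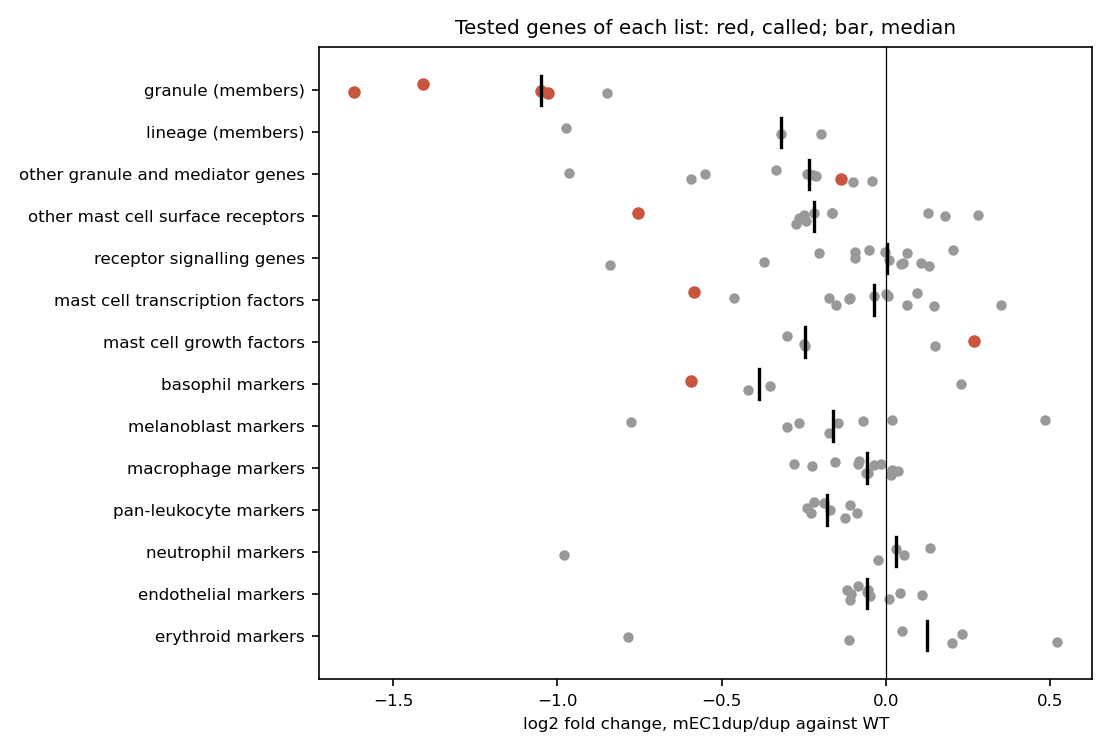
Log2 fold change of mEC1dup/dup against WT (horizontal axis) for the tested genes of each list, red where called, with the median as a black bar. The granule members have a median of -1.05 and the lists of other cell types have medians between -0.39 and 0.13.

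Markers of other cells that could share member genes were read in the same way. Basophils, which use the IgE receptor and Hdc, had 6 markers, of which 4 were tested and 1 was called lower. Of the tested ones, 3 had negative estimates and 1 a positive one (median -0.39). Their defining protease Mcpt8 had 7 to 12 counts per WT library and 2 to 5 per mEC1dup/dup library, too few to be tested, and Itga2b, shared with platelets, was called lower (log2 fold change -0.59 ± 0.14, SE, edgeR adjusted p = 0.0416). This call was kept in 2 of the 10 fits without 1 library (adjusted p of 0.0129 to 0.117). The summed basophil markers ranged from 14.7 to 21.8 CPM in WT and from 13.7 to 16.0 CPM in mEC1dup/dup libraries, and their part in the Hdc result was not tested.

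Markers of melanoblasts, which need Kit, gave 0 calls among 8 tested (median -0.16). Of these estimates 6 were negative and 2 positive. Pmel had a log2 fold change of -0.15 ± 0.12 (SE, edgeR adjusted p = 0.609) and Dct -0.26 ± 0.10 (adjusted p = 0.221). Mlana, named after its values were seen, had the largest estimate of the list, -0.78 ± 0.24, with groups that did not overlap. Mlana, Tyrp1 and Gpr143 averaged under the log2 CPM threshold, so no p could have called them. The list summed to 144 to 170 CPM in WT and 118 to 176 CPM in mEC1dup/dup libraries. Macrophage markers gave 0 calls among 12 (median -0.06), with Csf1r at -0.01 ± 0.09 (adjusted p = 0.957). All 8 pan-leukocyte markers had small negative estimates, 0 of them called (median -0.18), with Ptprc at -0.22 ± 0.15 (adjusted p = 0.515). Endothelial markers gave 0 calls among 10 (median -0.06), with Pecam1 at -0.11 ± 0.04 (adjusted p = 0.230). Neutrophil and erythroid lists gave 0 calls among 5 and 6 tested (medians 0.03 and 0.13), 3 and 4 of them with positive estimates. Camp and Mpo of the former and Klf1, Epb42 and Hemgn of the latter averaged under the log2 CPM threshold, so no p could have called them. The largest estimates, named after their values were seen, were Camp at -0.98 ± 0.33 (edgeR adjusted p = 0.144) and Hemgn at -0.78 ± 0.39 (adjusted p = 0.353).

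Of the 3 epithelial markers 1 was called lower. Krt5, a keratin of basal epithelium, fell from 327 ± 84.4 to 202 ± 27.7 CPM (SD, n = 5) with overlap (log2 fold change -0.69 ± 0.15, SE, edgeR adjusted p = 0.0257), a call kept in 5 of the 10 fits without 1 library (adjusted p of 0.0129 to 0.0782). Krt15 had -0.50 ± 0.14 (adjusted p = 0.0766), and it was called in 3 of those 10 fits, without the filter on low counts (adjusted p = 0.0317) and with the replicate block (adjusted p = 0.00199). Epcam had 0.04 ± 0.09 (adjusted p = 0.867). The part of the epithelium in the granule result was not tested.

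The 4 called members kept their call when any 1 library was left out (10 fits), with the highest adjusted p, 0.0292, for Hdc. They lost it where the Xist-high libraries were removed or adjusted for, as did nearly all genes. Of the 297 genes called lower in the main fit, the number fell to 0 without mEC1dup/dup replicates 1, 2 and 3 and to 1 with Xist as a covariate. Without mEC1dup/dup replicates 1, 2 and 3 the log2 fold changes were -1.38 for Cma1, -1.53 for Tpsb2, -1.03 for Cpa3 and -0.96 for Hdc, close to the values above, and adjusted p were 0.118 to 0.206. With Xist as a covariate they were -1.20 ± 0.30, -1.49 ± 0.33, -0.88 ± 0.25 and -0.82 ± 0.27 (SE). Their edgeR adjusted p were 0.283 to 0.445. No WT library was rich in Xist, so differences that go with Xist and with genotype cannot be fully told apart in these libraries.

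Members that were not called moved too. Mcpt4 went from -0.85 to -0.20 with Xist as a covariate and to -0.37 without mEC1dup/dup replicates 1, 2 and 3, Ms4a2 from -0.97 to -0.83 and -1.20, Kit from -0.32 to -0.23 and -0.25, and Gata2 from -0.20 to -0.05 and 0.07. In the same fits Il1rl1 was -0.77 and -0.76, Cebpa -0.48 and -0.54, Cd63 -0.10 and -0.12, Cxcl12 0.28 and 0.23, and Itga2b -0.47 and -0.54, all of them without a call.

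The embryonic globin share was the covariate with which the tested members other than Ms4a2 moved most. Adjusted for this share, the log2 fold changes came to -0.48 ± 0.71 (SE) for Cma1 and -0.48 ± 0.74 for Tpsb2. Those of Cpa3 and Hdc came to -0.39 ± 0.61 and 0.93 ± 0.42. Kit came to 0.10 ± 0.37, Gata2 to 0.47 ± 0.83, Mcpt4 to 0.97 ± 1.19 and Ms4a2 to -0.90 ± 1.43. For every tested member but Hdc the SE exceeded the size of the estimate. In this fit 0 genes of the whole table were called by edgeR (793 had an unadjusted p under 0.05, and the other tools were not run with this covariate). The share separated the genotypes completely, so that a difference of genotype and one that goes with this share cannot be told apart in these libraries.

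**Figure D5:**
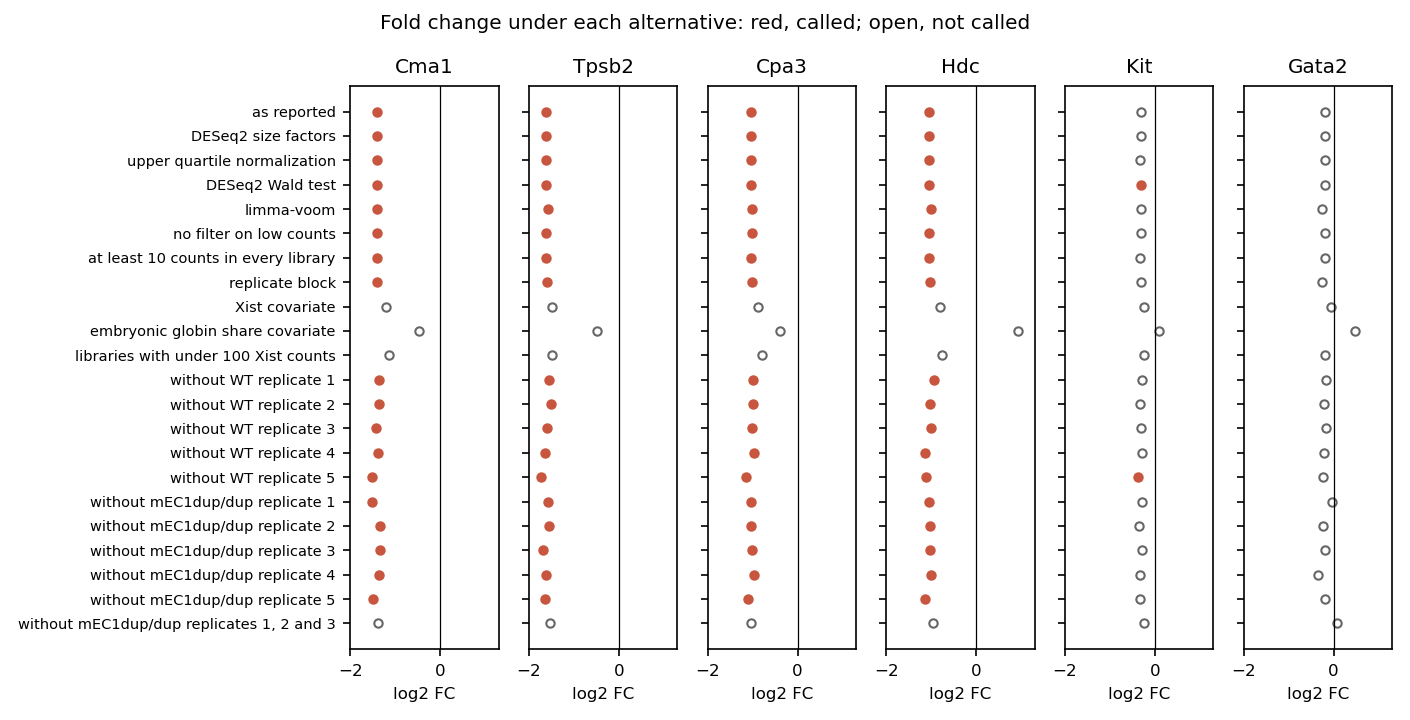
Log2 fold change (horizontal axes) of 6 members under each alternative way of processing (rows), red where called and open where not. Cma1, Tpsb2, Cpa3 and Hdc stay called in the 10 fits without 1 library and lose the call in the 4 that remove or adjust for Xist or adjust for the globin share.

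Within genotypes the granule genes varied with each other to differing degrees. Pearson correlations with Cpa3 were taken on deviations from the genotype means of log2 CPM over the 10 embryos, which may share library preparation. They were 0.78 for Cma1, 0.62 for Tpsb2, 0.52 for Kit, 0.50 for Hdc, 0.15 for Ms4a2, -0.07 for Mcpt4 and -0.10 for Gata2. Without WT replicate 5, where Cpa3 was low, they were 0.62, -0.06, 0.13, 0.20, 0.71, 0.06 and -0.43, so that those of Tpsb2, Kit and Hdc dropped and that of Ms4a2 rose. Among 16425 genes ranked by this correlation over all 10 embryos, Cma1 was at place 82, Tpsb2 at 446, Kit at 973 and Hdc at 1077, so that many other genes were as close to Cpa3. The 10 non-members with the most similar deviations were 1700030J22Rik, Gm42878, Dlec1, Zfp169, Ada, Tmem8b, Gm7730, Cmtr2, Pik3cg and Ccr1 (correlations 0.88 to 0.96), and 3 of them remained among the nearest 10 by rank correlation. Without WT replicate 5 their correlations ranged from 0.48 for Tmem8b to 0.92 for Zfp169.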

How the data were processed

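RNA from 10 embryonic pinna prominences, 5 WT and 5 mEC1dup/dup, was sequenced from poly-A-selected, unstranded libraries. Per the labels and methods, the authors used fastp for trimming, STAR for alignment to GRCm39 and featureCounts for counting, and the deposited values are raw counts per gene without normalization. The annotation release, strand setting and handling of multiply aligned reads are not given in the sources used here, and the labels and methods name different library kits.

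Every column was mapped to its genotype through the labels, and 0 columns were left unmapped. Symbols and positions came from GENCODE vM39 (GRCm39), which matched 49355 of 53465 identifiers, and the rest held 0.111% of counts. Genes were filtered with filterByExpr by genotype, normalized by TMM and fitted by edgeR version 4.0.16 (quasi-likelihood test, genotype the only term, R version 4.3.3), with Benjamini-Hochberg adjustment over 16426 genes. Standard errors are the log2 fold change over the square root of F, and 95% intervals use the degrees of freedom of the fit. CPM are scaled by TMM, and log2 CPM of single libraries used a prior count of 2. Counts carry no molecular identifiers, so limits drawn from them cover counting error only. With simulated counts for this comparison (16245 genes tested, 200 changed by 1 on the log2 scale), the fit recovered 81.5% of changed genes and called 4 unchanged ones.

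Members and lists were chosen with earlier results of these data known. Named genes were the members, Hmx1, Xist, the called genes of each list, 6 preset mast cell genes, 5 defining markers of other cells and the 10 genes most like Cpa3. Markers of pinna tissue were named as a check. Alternatives were DESeq2 (version 1.42.0) size factors and Wald test, upper quartile normalization, limma-voom (limma version 3.58.1), 2 other filters, 2 other call rules, the replicate block, Xist and embryonic globin share (Hbb-y, Hbb-bh1 and Hba-x among globin counts) as covariates, only libraries with under 100 Xist counts, and each library left out. The fit without mEC1dup/dup replicates 1, 2 and 3, and the correlations without WT replicate 5, were chosen after seeing the data. Replicates were separate embryos, and the paper describes the replicates of its mouse studies as siblings from separate litters. Which embryos shared a litter is not given in the sources used here. Single-cell data of the study were not used here. The promoter sequence of 1 called protease is not reported here.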

Additional observations from a re-analysis of the deposited data

Results flagged for a closer look

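Library values of the tested members, of 21 other named genes and of both sums were examined in each genotype (62 groups of 5) for a value whose gap to the nearest other exceeded 0.71 of the range of its group. Chance alone marks about 1 in 20 such groups. Cpa3 in WT replicate 5 stood apart at 20.05 CPM, where the other WT libraries held 32.2 to 36.3 CPM. Slc18a2, the vesicular monoamine transporter, stood apart in mEC1dup/dup replicate 4 at 7.28 CPM, where the others held 3.63 to 4.40 CPM. The keratin genes both stood apart in mEC1dup/dup replicate 1, Krt5 at 249.7 CPM (others 180.1 to 199.1 CPM) and Krt15 at 157 CPM (others 106 to 120.02 CPM). Epcam stood apart in WT replicate 1 at 62.3 CPM (others 50.9 to 52.4 CPM).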

How the results depend on the processing

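Of 182 re-estimates of the members' fold changes under the alternatives, 160 kept direction and call, 15 lost a call with the sign kept, 2 gained one and 5 changed sign, 1 of which (Hdc, globin covariate) also lost its call. Genes called lower across the table (297) became 510 with the Wald test of DESeq2, 487 with the replicate block, 62 at an adjusted p of at most 0.01, 1 with the Xist covariate, and 0 with the globin covariate, in libraries with under 100 Xist counts and without mEC1dup/dup replicates 1, 2 and 3. Genes called higher (137) became 321 with the Wald test, 16 at the stricter adjusted p, 1 with the Xist covariate and 1 without mEC1dup/dup replicates 1, 2 and 3, and 0 with the globin covariate and in libraries with under 100 Xist counts. These edgeR fits had unadjusted p under 0.05 for 793 genes (globin covariate), 1171 (under 100 Xist counts) and 1853 (without replicates 1, 2 and 3).

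In Xist-poor libraries, where mEC1dup/dup is replicate 5 alone and is assumed to vary like WT, the log2 fold changes were -1.14 (Cma1), -1.48 (Tpsb2), -0.79 (Cpa3) and -0.76 (Hdc). The added fit without mEC1dup/dup replicates 1, 2 and 3 gave -1.38, -1.53, -1.03 and -0.96, the Xist covariate -1.20, -1.49, -0.88 and -0.82, and the globin covariate -0.48, -0.48, -0.39 and 0.93, none of them called. Fewer libraries enter the first 2 of these fits, and for the covariates the cause was not tested. Kit was called by the Wald test at -0.32. With the globin covariate Mcpt4 was 0.97, Kit 0.10, Gata2 0.47, Il1rl1 0.015, Srgn 0.88, Cebpa 0.52, Cxcl12 -0.030, Itga2b 0.65, Kitl 0.041, Mitf 0.36, Ptprc 0.21, Csf1r 0.52, Pmel 1.08, Pecam1 0.19, Lat2 0.72, Lcp2 0.048, Krt5 0.64 and Krt15 0.63, all signs reversed and the cause not tested. For the members among them, Mcpt4, Kit and Gata2, the SE of 1.19, 0.37 and 0.83 exceeded the estimates. Other sign changes were Gata2 at 0.068 and Slc18a2 at 0.039 without mEC1dup/dup replicates 1, 2 and 3, Csf1r at 0.018 and Pecam1 at 0.0065 with the Xist covariate, and Csf1r at 0.074 and Pecam1 at 0.00033 in Xist-poor libraries.

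Leaving out 1 library at a time gave 120 to 476 genes called lower and 34 to 179 called higher, and log2 fold changes of -1.53 to -1.34 (Cma1), -1.73 to -1.52 (Tpsb2), -1.15 to -0.96 (Cpa3), -1.14 to -0.93 (Hdc), -1.02 to -0.70 (Mcpt4), -1.12 to -0.77 (Ms4a2), -0.37 to -0.28 (Kit) and -0.35 to -0.03 (Gata2). Fcer1g ranged from -0.15 to 0.0076, Csf1r from -0.064 to 0.059 and Epcam from -0.043 to 0.104.

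The deviations of same-numbered WT and mEC1dup/dup libraries correlated between -0.056 and 0.345, with a mean of 0.162, above that of other pairs (-0.040). The labels give the numbers as replicates only, so the main fit did not take them as pairs. With the replicate block 487 genes were called lower rather than 297, and 200 higher rather than 137. The block changed no call of a member. Whether same-numbered libraries shared a litter or processing was not tested. Scaling CPM to total counts left the log2 ratio of the granule sums at -1.16 (main value -1.17) and that of the lineage sums at -0.25 (main value -0.26). By Spearman correlation 3 of the 10 genes nearest to Cpa3 remained. Depth limits Fcer1a, Tpsab1, Mcpt4 and Ms4a2, whose libraries held at most 23 counts each.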
